A study of Macaca fascicularis with 4 samples.

Results

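Tissues of the abdominal cavity were compared with tissues of the body wall in the cynomolgus monkey (Macaca fascicularis), using long-read RNA libraries. The visceral side was liver and oWAT, and the body-wall side was muscle and sWAT, so that all 4 libraries of the series entered. WAT commonly stands for white fat. The labels do not spell out oWAT or sWAT, the deposited tables call these libraries eWAT and iWAT, and which depots they are was not settled. The labels give no muscle by name, and give no sex, age, diet or treatment. The placing of the libraries is an anatomical reading of the tissue names and not a label. Each library was made from RNA of 5 monkeys pooled by tissue before sequencing on a PacBio instrument that reads whole cDNA molecules. There is 1 library per tissue, and liver and oWAT are different tissues rather than replicates of a site. No p-value was therefore computed, and the intervals below cover counting error alone.

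A gene was counted only if all 4 pairings (liver over muscle, liver over sWAT, oWAT over muscle and oWAT over sWAT) pointed the same way. Of 13982 genes in the files, 10127 had at least 10 counts over the 4 libraries and are called measured. Their 4 ratios were all above 1 for 904 genes (8.93%) and all below 1 for 814 (8.04%), both with counts scaled to the library total (in the unit CPM) and with totals corrected by trimmed mean of M-values (TMM) factors. A library at 0 counted as below any other count. A stricter call asked that the exact 95% interval of the ratio exclude 1 in every pairing under both scalings, with at least 10 counts in both libraries of the higher side. It was met by 52 of 4106 eligible genes higher in the visceral libraries (1.27%) and by 40 of 4778 eligible genes lower there (0.837%).

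Body position is written into cells early in development. HOX genes lie in clusters whose order matches the head-to-tail order of their activity, and T-box, GATA and other regulators mark the limb and body wall or the inner organs. The lining of the abdominal cavity, the mesothelium, covers the organs and fat of that cavity and is an epithelium with keratins and junctions. Connective tissue differs between organs in its collagens and matrix enzymes, and the liver sinusoids are a known site of resident immune cells.

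The libraries held 437587 gene counts in liver and 396797 in oWAT, against 439872 in muscle and 383896 in sWAT. Cell type markers matched the liver and muscle labels. The 15 hepatocyte markers summed to 191052 CPM in liver and 7.56 CPM in oWAT, against 0 in muscle and sWAT, and 12 of the 15, APOB and FGA among them, had 0 counts in oWAT. Myofibre markers summed to 142 CPM in liver and 95.8 CPM in oWAT, against 145231 CPM in muscle and 107 CPM in sWAT. Both fat libraries carried fat cell markers. Adipocyte markers summed to 786 and 17215 CPM in liver and oWAT, against 1464 and 20675 CPM in muscle and sWAT. Mesothelium markers summed to 105 and 6535 CPM in liver and oWAT, against 359 and 995 CPM in muscle and sWAT. Of the listed members, MSLN, WT1 and ITLN1 had 2, 1 and 5 counts in liver and 130, 277 and 964 in oWAT, against 0 in muscle and sWAT. Of 21 listed mesothelial genes 8 were at 0 in liver and 1 in oWAT, against 13 in muscle and 10 in sWAT. The gene at 0 in oWAT was CALB2, which went the other way, with counts in sWAT alone. In these bulk libraries fewer cells of a type and less RNA per cell cannot be told apart.

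The fat contrast and the organ contrast share no library, which allows them to be set side by side. Among 5755 genes with at least 10 counts in a library of each contrast, 558 (9.7%) were higher in oWAT than in sWAT and 450 (7.82%) were lower, with the interval excluding 1 under both scalings. Of the 558, 102 (18.3%) were also higher in liver than in muscle, which is 11.7% of the 872 genes higher in liver. A larger number, 192 (34.4%), were lower in liver than in muscle. Of the 450 genes lower in oWAT, 200 (44.4%) were also lower in liver, or 12.1% of the 1653 genes lower in liver, and 86 (19.1%) were higher there. The liver-to-muscle contrast itself gave 872 higher (15.2%) and 1653 lower genes (28.7%). Across the 10127 measured genes the log2 ratios of the 2 contrasts had a Spearman correlation of 0.024, which was 0.017 among the 3423 genes with at least 100 counts. Genes are not independent replicates and share the depth of each library, so this is a description. The depot difference as a whole did not run along the organ difference, and the genes described here are the minority in the corners of the plot of both contrasts.

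**Figure D1:**
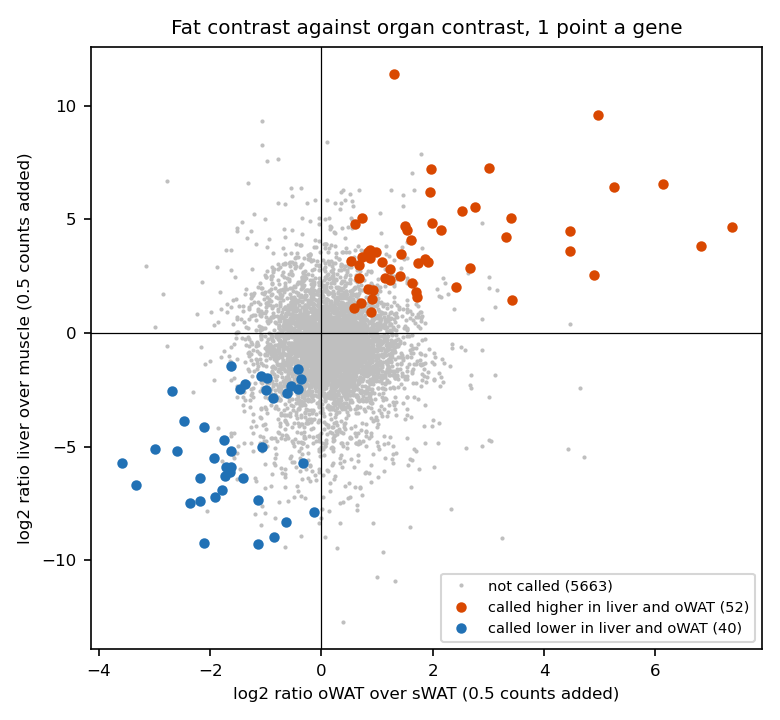
Each of the 5755 points is a gene, with the log2 ratio of oWAT over sWAT on the x axis and of liver over muscle on the y axis (CPM, 0.5 counts added). The 52 genes called higher in liver and oWAT lie at the upper right and the 40 called lower at the lower left, and the Spearman correlation over the 10127 measured genes is 0.024.

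Among positional regulators, TBX15 was called. TBX15 encodes a T-box factor of the limb, trunk skeleton and muscle. It had 3 counts in liver and 2 in oWAT, against 359 in muscle and 24 in sWAT. The liver-to-sWAT ratio, the pairing nearest 1, was 0.11 (exact 95% interval 0.021 to 0.361) with library totals and 0.198 (0.0383 to 0.654) with TMM. It was the only called gene in the list of 44 body-wall and limb regulators, of which 22 had counts, 9 were measured and 4 had at least 10 counts in both muscle and sWAT.

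PRRX1, a homeobox factor of limb and trunk mesenchyme, had 0 counts in liver and 7 in oWAT, against 8 in muscle and 9 in sWAT. Its 4 ratios were below 1, but the oWAT-to-muscle interval ran from 0.299 to 3.06. The other abundant members did not divide by site. MEOX1 and MEOX2, regulators of the somites, had 0 and 1 counts in liver and 29 and 27 in oWAT, against 20 and 26 in muscle and 27 and 38 in sWAT. They were thus near absent from liver, and their oWAT-to-sWAT intervals included 1. EYA1, EYA4 and SIX4, of the myogenic network, had 0, 0 and 0 counts in liver and 0, 0 and 5 in oWAT, against 30, 37 and 41 in muscle and 0, 0 and 2 in sWAT. OSR2 and TBX18 had 0 counts in liver and 13 and 2 in oWAT, against 10 and 2 in muscle and 30 and 12 in sWAT. The list's median log2 difference, visceral minus body wall, was -2.65, beside -0.15 over all measured genes, and 7 of the 9 measured members had 0 counts in liver.

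HOX transcripts were nearly absent from liver. Over 25 HOX genes with any count, liver had 1 count and oWAT had 52, against 77 in muscle and 61 in sWAT. On the scale of summed CPM these are 2.29 (exact 95% Poisson interval 0.0579 to 12.7) in liver and 131 (97.9 to 172) in oWAT, against 175 (138 to 219) in muscle and 159 (122 to 204) in sWAT. The interval of oWAT overlaps those of muscle and sWAT, so the summed HOX level separated liver from the other 3 libraries and not the visceral from the body-wall side. With TMM scaling the values were 3.41 in liver and 97.3 in oWAT, against 192 in muscle and 131 in sWAT. The intervals of oWAT and muscle then did not overlap, while those of oWAT and sWAT did.

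The paralogue number, which follows the position in a cluster, gave a different picture, in a split made after the values were seen. The 16 genes of groups 1 to 8 had 1 count in liver and 45 in oWAT, against 31 in muscle and 47 in sWAT. The 9 genes of groups 9 to 13, the tail end of the clusters, had 0 counts in liver and 7 in oWAT, against 46 in muscle and 14 in sWAT. For these posterior genes oWAT reached 17.6 CPM (7.09 to 36.3), against 105 CPM (76.6 to 139) in muscle and 36.5 CPM (19.9 to 61.2) in sWAT. The interval of the liver count of 0 reached up to 8.43 CPM, and the intervals of oWAT and sWAT overlap under either scaling.

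**Figure D2:**
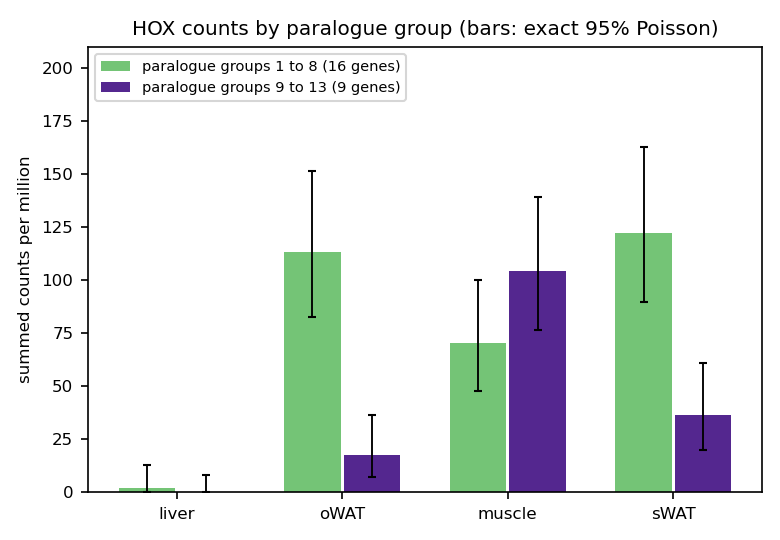
Summed CPM of HOX genes on the y axis in liver, oWAT, muscle and sWAT, split by paralogue group, with exact 95% Poisson intervals as error bars. Liver is near 0 in both classes, and groups 9 to 13 reach 17.6 CPM in oWAT, against 105 CPM in muscle and 36.5 CPM in sWAT.

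Of the 8 measured HOX genes 2 had all 4 ratios below 1, beside 8.04% of all measured genes, and none was eligible for a call. HOXA10 had 0 counts in liver and 1 in oWAT, against 15 in muscle and 9 in sWAT, with an oWAT-to-sWAT ratio of 0.107 (0.00245 to 0.776). HOXA9 had 0 and 2 counts in liver and oWAT, against 8 and 3 in muscle and sWAT. Both belong to the posterior groups. HOXC10 was seen in muscle alone, with 14 counts and 0 elsewhere. HOXA6, HOXD4 and HOXC6 had 0 counts in liver and 7, 8 and 3 in oWAT, against 7, 3 and 1 in muscle and 9, 11 and 11 in sWAT. HOXA3 and HOXA5 had 0 and 1 counts in liver and 8 and 9 in oWAT, against 3 and 3 in muscle and 1 and 5 in sWAT. These 5 did not divide by site.

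No regulator of the visceral list was called, and liver and oWAT held different members of it. Of 15 measured members 5 (33.3%) had all 4 ratios above 1 (GATA5, WT1, HLX, BNC1 and NR2F2) and 1 (6.67%) had all below. Over all measured genes the shares were 8.93% and 8.04%. For GATA5 and WT1 the liver ratios rested on 1 count in liver, against 1 and 0 in muscle and 0 in sWAT, so their direction is uncertain. WT1, a factor of the mesothelium, had 1 count in liver and 277 in oWAT, against 0 in muscle and sWAT. HLX, a homeobox factor of visceral mesenchyme, had 11 and 20 counts in liver and oWAT, against 7 and 9 in muscle and sWAT, and its liver-to-sWAT ratio of 1.07 (0.404 to 2.93) did not exclude 1. It alone of the list reached 10 counts in both visceral libraries.

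GATA factors were divided between the visceral tissues. GATA4 had 26 counts in liver and 0 in oWAT, GATA5 1 and 11, and GATA6 3 and 4, against 0, 1 and 0 in muscle and 0 each in sWAT. The endoderm and hepatocyte factors PROX1, NR5A2 and HHEX had 158, 61 and 29 counts in liver but 2, 4 and 5 in oWAT, against 5, 2 and 4 in muscle and 4, 12 and 10 in sWAT. OSR1 and BNC2 went the other way: they had 78 and 53 counts in oWAT and 0 in liver, against 16 and 14 in muscle and 12 and 22 in sWAT. SOX17, an endothelial and endodermal factor, had 2 and 16 counts in liver and oWAT, against 15 and 23 in muscle and sWAT. The list's median log2 difference was 1.55.

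Called genes of the matrix lists lay on the body-wall side, with the exception of TGM2. MMP2, a gelatinase of connective tissue, had 2 counts in liver and 732 in oWAT, against 1265 in muscle and 1283 in sWAT. Its oWAT-to-muscle ratio was 0.641 (0.585 to 0.703), or 0.498 with TMM in the pairing with sWAT. Muscle and sWAT held it at like counts, well above oWAT. MMP3 (stromelysin-1) had 0 and 1 counts in liver and oWAT, against 26 and 17 in muscle and sWAT, with an oWAT-to-sWAT ratio of 0.0569 (0.00136 to 0.363). FAP, a cell-surface protease of fibroblasts, had 0 and 30 counts, against 59 and 101, with a ratio of 0.564 to muscle (0.351 to 0.889).

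These 3 were the called-lower members among 30 eligible genes of the matrix enzyme list. TGM2 (tissue transglutaminase, which cross-links proteins) was its only called-higher member, 1 of 16 eligible. It had 130 counts in liver and 172 in oWAT, against 48 in muscle and 15 in sWAT, and a liver-to-muscle ratio of 2.72 (1.94 to 3.87). The collagen chaperone SERPINH1 was not called. It had 14 and 585 counts in liver and oWAT, against 213 and 444 in muscle and sWAT, so oWAT stood above both body-wall libraries and liver below them. TIMP3, an inhibitor of metalloproteinases, had 25 and 396 counts, against 117 and 883, and was not called either.

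Of 29 eligible adhesive and matricellular genes 4 were called lower in the visceral libraries. CILP, a matrix protein of cartilage and fibrous tissue, had 0 counts in liver and 155 in oWAT, against 313 in muscle and 333 in sWAT, with an oWAT-to-muscle ratio of 0.549 (0.45 to 0.668). The CCN family members CCN3 and CCN5 had 0 and 0 counts in liver and 13 and 11 in oWAT, against 41 and 41 in muscle and 59 and 29 in sWAT. Their limiting ratios were 0.351 (0.173 to 0.669) to muscle and 0.367 (0.165 to 0.757) to sWAT. THBS4, a thrombospondin of tendon and muscle, had 0 and 2 counts, against 299 and 10, so its body-wall level was mostly that of muscle. SPARC and FN1, the best-counted members, were not called. SPARC had 71 and 2135 counts, against 1334 and 3258, and FN1 3594 and 1238, against 629 and 2224.

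The next list holds fibrillar and fibril-associated collagens and also chains of collagens VI and VIII. In it COL3A1 was called lower, and 14 of 17 measured members did not have 4 ratios of the same direction. COL3A1 (type III collagen) had 86 counts in liver and 3051 in oWAT, against 3959 in muscle and 11288 in sWAT, and its oWAT-to-muscle ratio was 0.854 (0.815 to 0.896) with library totals and 0.578 with TMM. COL1A1 had 12 and 3004 counts, against 2857 and 12053, and COL1A2 34 and 2035, against 1729 and 6765. Their oWAT-to-muscle ratios were 1.17 (1.11 to 1.23) and 1.3 (1.22 to 1.39) with library totals but 0.789 and 0.883 with TMM, so the direction of that pairing turned with the scaling. They were called with TMM or with DESeq2 size factors alone, as was COL5A2 (7 and 113 counts, against 136 and 398). The list had 13 eligible members and a median log2 difference of -2.18. Of its measured members 3 (17.6%) had all 4 ratios below 1, beside 8.04% of all measured genes. The list summed to 560 and 25716 CPM in liver and oWAT, against 22993 and 86307 CPM in muscle and sWAT. By library totals oWAT thus stood above muscle.

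In the basement membrane list 1 of 12 eligible genes was called lower. This was LAMA2, the laminin chain of muscle fibres and nerve sheaths, with 3 and 18 counts in liver and oWAT, against 51 and 99 in muscle and sWAT, and a ratio of 0.391 (0.215 to 0.681) of oWAT to muscle. LAMA4 and COL4A2, of vessel and fat cell basement membranes, had 578 and 285 counts in oWAT but 4 and 15 in liver, against 72 and 101 in muscle and 530 and 666 in sWAT. Proteoglycan and elastic fibre genes gave no call among 21 eligible members. The best-counted members were FBLN2, with 7 and 1016 counts against 851 and 1978, and DCN, with 25 and 927 against 563 and 841. FBLN2 was called lower with TMM or DESeq2 factors alone.

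Summed fibroblast markers moved with these results in 3 of the 4 pairings. In oWAT over muscle the direction of the sum over all 16 turned with the scaling. The sum over the 8 outside the matrix lists was opposite to the matrix calls in that pairing. The 16 markers summed to 1380 and 29723 CPM in liver and oWAT, against 23596 and 89303 CPM in muscle and sWAT, and liver had 0 counts for 2 of them, PI16 and MFAP5. Of these markers 8, COL3A1 among them, are in the matrix lists too. The other 8 summed to 964 and 3649 CPM in liver and oWAT, against 1887 and 6223 CPM in muscle and sWAT. With TMM all 16 summed to 22069 in oWAT, against 25887 in muscle, and the other 8 to 2709 in oWAT, against 2070 in muscle. The other 8 thus stood higher in oWAT than in muscle under both scalings. Of the 40 genes called lower, 16 had 0 counts in liver. The limiting pairing with library totals was oWAT over muscle for 20 and oWAT over sWAT for 19 of the 40. The part of fibroblast content in the matrix differences was not tested.

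Complement held the visceral call with the interval bound farthest from 1. C3, the central complement protein, had 4997 counts in liver and 1050 in oWAT, against 6 in muscle and 32 in sWAT, and its oWAT-to-sWAT ratio was 31.7 (22.3 to 46.7) with library totals and 28.6 with TMM. The interval bound nearest 1 over all pairings and both scalings was 20.1. SERPING1, the inhibitor of C1, had 573 and 436 counts, against 115 and 179, with a ratio of 2.36 (1.98 to 2.82) to sWAT. CLU (clusterin, a chaperone that restrains the terminal complex) had 932 and 243 counts, against 40 and 81, with a ratio of 2.90 (2.25 to 3.78). Hepatocyte markers were at 7.56 CPM in oWAT, and C3 stood there at 2646 CPM. The source of the C3 counts in oWAT was not tested.

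These 3 genes were called among 14 eligible complement genes. Of 34 measured members 0 had all 4 ratios below 1 and 8 (23.5%) had all above, beside 8.93% of all measured genes. A liver gene with a stray count in oWAT meets this where muscle and sWAT are at 0. Of the hepatocyte markers 3 of 15 met it, with 3 counts in oWAT in all. Among 37 listed complement genes 16 were at 0 in muscle and 12 in sWAT, so the share does not measure sharing alone. The terminal components differed among themselves. C9 had 1398 counts in liver and 0 in oWAT, against 0 in muscle and sWAT. C7 was higher in oWAT than in liver, with 169 counts in liver and 1000 in oWAT, against 87 in muscle and 320 in sWAT, and its liver-to-sWAT ratio was 0.463 (0.382 to 0.56) with library totals and 0.839 (0.692 to 1.01) with TMM. Among genes with all 4 ratios above 1, CFP (properdin) had 20 and 17 counts, against 9 and 7, and VSIG4, a complement receptor of resident macrophages, 22 and 60, against 12 and 17. Mesothelium markers moved with C3 in the fat contrast, and their part in it was not tested.

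**Figure D3:**
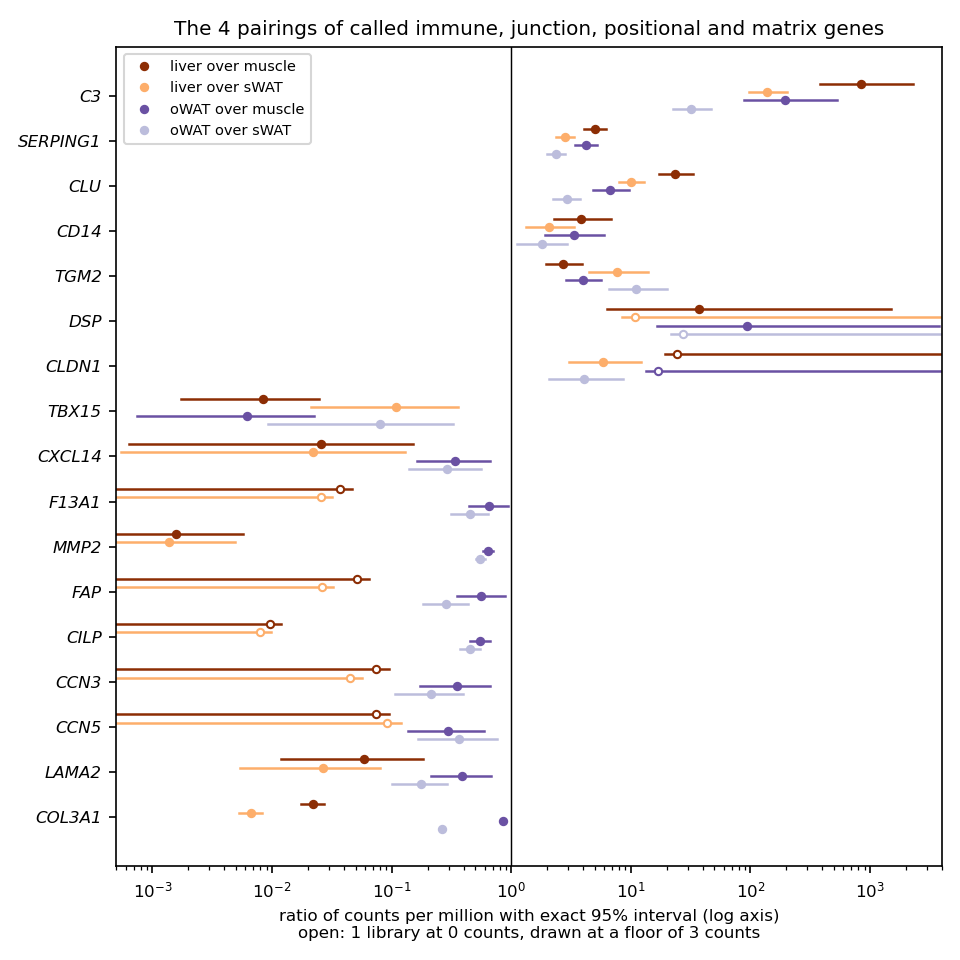
Ratios of CPM in the 4 pairings, on a log axis, with exact 95% intervals for 17 called genes, and open points where a library had 0 counts. All 4 intervals of C3 lie far to the right of 1 (oWAT over sWAT 31.7), and for most of the lower group the oWAT pairings (CILP 0.549 over muscle) lie much nearer 1 than the liver pairings.

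Macrophage markers were split. CD14, the co-receptor for bacterial lipopolysaccharide, had 69 counts in liver and 54 in oWAT, against 18 in muscle and 29 in sWAT, with an oWAT-to-sWAT ratio of 1.80 (1.13 to 2.93). It was 1 of 16 eligible members called higher, and the call was lost with DESeq2 size factors. F13A1, the factor XIII subunit carried by tissue macrophages, was 1 of 17 eligible members called lower, with 0 and 48 counts, against 82 and 103, and a ratio of 0.649 (0.445 to 0.938) of oWAT to muscle.

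The scavenger receptor MARCO had 19 and 12 counts in liver and oWAT, against 3 and 1 in muscle and sWAT. CD5L, a Kupffer cell product, had 40 and 6 counts, against 0 and 2. LYVE1, which marks macrophages along vessels as well as lymphatic and sinusoidal endothelium, pointed the other way, with 6 and 42 counts, against 47 and 80. Its oWAT-to-muscle ratio with library totals was just below 1. MARCO, CD5L, VSIG4 and LYVE1 had 4 ratios of the same direction but were not called. CD163 had 31 and 33 counts, against 20 and 62, and did not divide by site. GPNMB and LPL were fat genes in these libraries, with 29 and 20 counts in liver and 807 and 2841 in oWAT, against 121 and 252 in muscle and 617 and 3529 in sWAT. In the list as a whole 6 of 31 measured members (19.4%) had all ratios above 1 and 2 (6.45%) had all below. The shares over all measured genes were 8.93% and 8.04%. The list's summed level was 1810 and 13488 CPM in liver and oWAT, against 2255 and 14908 CPM in muscle and sWAT. That sum includes GPNMB and LPL. LPL alone gave 2841 of the 5352 summed counts in oWAT and 3529 of the 5723 in sWAT, so the sum is not a macrophage level.

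Lymphocyte markers were sparse. The 32 T and natural killer cell genes with counts summed to 176 CPM in liver and 217 CPM in oWAT, against 40.9 CPM in muscle and 96.4 CPM in sWAT, and 5 were measured. IL2RB, a chain of the interleukin-2 receptor, had 11 and 12 counts, against 3 and 2, and ZAP70, a kinase of T cell receptor signalling, 14 and 9, against 3 and 6. Neither was called, as the intervals of IL2RB in liver over muscle (0.974 to 20.6) and of ZAP70 in oWAT over sWAT (0.461 to 4.95) included 1. CD6 had 3 and 25 counts, against 4 and 7, and FOXP3 31 and 1, against 0 and 1. FOXP3 alone thus gave 31 of the 77 counts summed in liver, where 16 of the 32 genes were at 0.

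The antibody joining chain JCHAIN had 6 counts in liver and 52 in oWAT, against 1 in muscle and 3 in sWAT, and BLNK, an adaptor of B cell signalling, 7 and 9, against 0 and 1. SDC1 and XBP1 of the same list are also expressed by hepatocytes and other cells, and had 266 and 127 counts in liver and 6 and 99 in oWAT, against 3 and 86 in muscle and 6 and 43 in sWAT. BANK1, a scaffold of B cell signalling and the last of the 5 measured members, had 0 and 19 counts in liver and oWAT, against 4 and 14 in muscle and sWAT. Of the 39 measured chemokine, cytokine and receptor genes 7 (17.9%) had all ratios above 1, 2 (5.13%) had all below and 1 was called. Over all measured genes the shares were 8.93% above and 8.04% below. CXCL14, a chemokine of skin and stroma, was lower in the visceral libraries, with 1 and 12 counts, against 39 and 40, and a ratio of 0.341 (0.163 to 0.665) of oWAT to muscle. CXCL12 had 252 and 498 counts, against 350 and 498, and was not called.

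Interferon-response genes had 6 of 37 measured members (16.2%) with all ratios above 1 and 1 (2.7%) with all below, and none called. All measured genes gave 8.93% above and 8.04% below. MX1, an antiviral GTPase, had 19 and 48 counts in liver and oWAT, against 12 and 13 in muscle and sWAT. Antigen presentation did not divide by site: B2M had 125 and 425 counts, against 90 and 493, and CD74 59 and 388, against 175 and 312. The list's median log2 difference of -0.097 turned to 0.049 with TMM. The acute phase list summed to 18060 and 207 CPM in liver and oWAT, against 54.6 and 156 CPM in muscle and sWAT. In it 3 of 18 measured members (16.7%) were above 1 in all pairings. ITIH4 and APCS had 2532 and 963 counts in liver and 0 in oWAT, against 16 and 0 in muscle and 1 and 0 in sWAT.

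**Figure D4:**
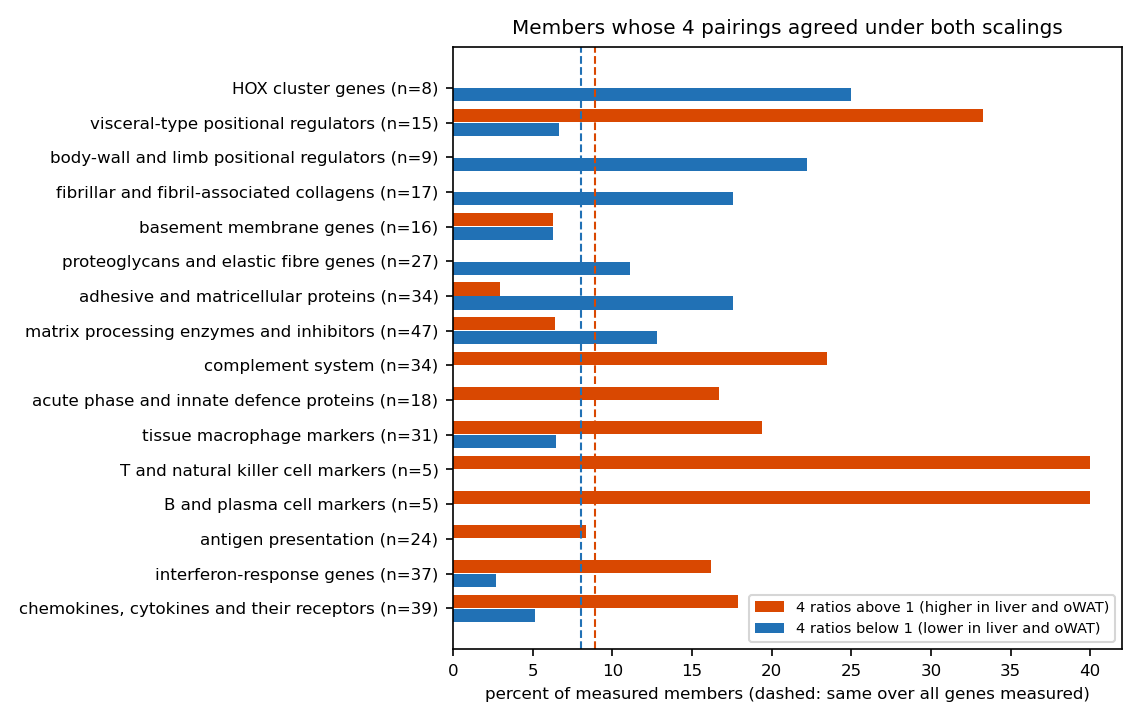
Percent of measured members (x axis) of each positional, matrix and immune list whose 4 ratios were all above 1 or all below 1 under both scalings. Dashed lines give the 8.93% and 8.04% of all measured genes, and matrix lists show few members higher in liver and oWAT while complement shows 23.5%.

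Epithelial junction genes gave 3 visceral calls. DSP (desmoplakin, of desmosomes) had 37 counts in liver and 85 in oWAT, against 1 in muscle and 0 in sWAT, and a liver-to-muscle ratio of 37.2 (6.27 to 1508). CLDN1 (claudin-1, of tight junctions) had 73 and 46 counts, against 0 and 11, with an oWAT-to-sWAT ratio of 4.05 (2.06 to 8.66). CGNL1, a junction-associated cingulin relative, had 48 and 33 counts, against 10 and 10, with a ratio of 3.19 (1.54 to 7.26). There were 9 eligible members. Of 19 measured members 10 (52.6%) had all 4 ratios above 1 with 0 all below, while the other 9 did not agree in direction. Over all measured genes 8.93% had all 4 ratios above 1 and 8.04% all below.

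CXADR, a tight junction protein and virus receptor outside that list, had 42 and 34 counts, against 3 and 1, and a ratio of 12.6 (3.95 to 63.9) of oWAT to muscle. NECTIN2, an adhesion molecule, had 57 and 52 counts, against 19 and 15, and a ratio of 3.03 (1.76 to 5.43). Some members came from a single visceral tissue. CDH1 (E-cadherin) had 102 counts in liver and 2 in oWAT, and KRT19 2 and 48, both against 0 in muscle and sWAT. Hepatocyte markers in liver and mesothelium markers in oWAT stand beside these values, and their part in the shared calls was not tested.

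Among the remaining leading visceral calls were enzymes of metabolism. ALDH1A1, a retinaldehyde dehydrogenase, had 282 counts in liver and 310 in oWAT, against 16 in muscle and 98 in sWAT, with a liver-to-sWAT ratio of 2.52 (1.999 to 3.21). PCK1, the cytosolic enzyme of glucose and glycerol synthesis, had 1325 and 77 counts, against 0 and 30, so its visceral level was mostly that of liver. PDLIM2 had 25 and 29 counts, against 3 and 4, and the glycosyltransferase gene B3GNT7 27 and 15, against 1 and 1.

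**Figure D5:**
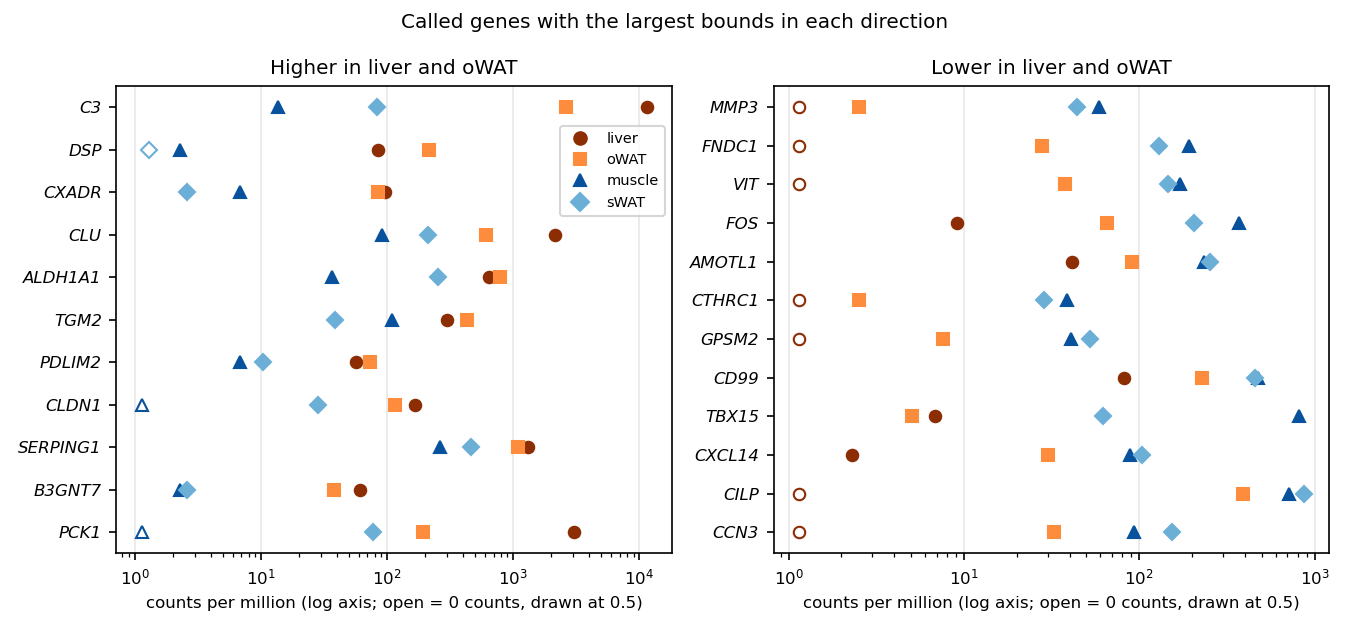
CPM on a log axis in each library for genes with a symbol and the largest interval bounds, 11 called higher and 12 called lower, with open symbols for 0 counts. ALDH1A1, TGM2 and SERPING1 lie close together in liver and oWAT, and 7 of the 12 genes of the lower group (MMP3 and CILP among them) had 0 counts in liver.

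Evenness between tissues of a site was checked because a site-wide gene should not rest on a single tissue. Of the 52 genes called higher, 16 lay within 2-fold between liver and oWAT under both scalings, and of the 40 called lower, 27 did so between muscle and sWAT. These 2 shares cannot be compared, because TMM moved liver over oWAT more than muscle over sWAT. For SERPING1 the first ratio went from 1.19 to 2.39 and the second from 0.561 to 0.747. The limit was thus narrower for the visceral genes, and the share over all genes was not computed. The even visceral genes included the chaperone HSPA5 of the endoplasmic reticulum, with 595 and 748 counts, against 310 and 392, and a liver-to-sWAT ratio of 1.33 (1.17 to 1.52). SOX5, a transcription factor, had 23 and 24 counts, against 2 and 6. PRKAG2, a subunit of the energy sensor AMPK, had 39 and 38 counts, against 11 and 11, and the scaffold SLC9A3R1 30 and 30, against 7 and 5. PTPRF, a receptor phosphatase, had 144 and 144 counts, against 18 and 87. ASTN2 had 14 and 15 counts, against 2 and 0, and BRPF3 11 and 11, against 0 and 2.

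Several even genes of the body-wall side encode secreted or matrix proteins. FNDC1 and VIT, both of the extracellular matrix, had 0 and 0 counts in liver and 11 and 15 in oWAT, against 84 and 75 in muscle and 50 and 56 in sWAT. The oWAT-to-sWAT ratios were 0.213 (0.0999 to 0.414) and 0.259 (0.136 to 0.465). CTHRC1, a secreted collagen triple helix protein, had 0 and 1 counts, against 17 and 11, and SPOCK1, a testican proteoglycan, 1 and 9, against 26 and 39. AMOTL1, an angiomotin relative, had 18 and 36 counts, against 103 and 97, and the surface protein CD99 36 and 90, against 209 and 175. CDH13 (T-cadherin, a receptor for adiponectin) had 0 and 78 counts, against 160 and 117. GPSM2 had 0 and 3 counts, against 18 and 20, and the methyltransferase SETD7 49 and 48, against 137 and 144. FYCO1 had 35 and 53 counts, against 130 and 110, and SH3GLB1 33 and 61, against 133 and 117. AQP1 (aquaporin-1 of vessels and red cells) was called but not even, as muscle stood well above sWAT: it had 12 and 268 counts, against 655 and 328, a ratio of 0.791 (0.67 to 0.932) of oWAT to sWAT.

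FOS, an immediate early transcription factor, had 4 counts in liver and 26 in oWAT, against 163 in muscle and 79 in sWAT, with an oWAT-to-sWAT ratio of 0.318 (0.196 to 0.502). DUSP1, a phosphatase of the same early response, had 47 and 83 counts, against 295 and 123. A list of 30 immediate early genes drawn up after FOS was seen had 16 measured members, of which 2 were called lower and 0 higher. Its summed level was 299 and 1439 CPM in liver and oWAT, against 2542 and 1605 CPM in muscle and sWAT.

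The endoplasmic reticulum genes PDIA4 and SERP1 were called beside HSPA5. PDIA4, a disulfide isomerase, had 437 and 202 counts, against 44 and 107, and SERP1 175 and 115, against 47 and 58. In a list of 28 chaperones and regulators of that compartment, also drawn up after these calls were seen, 3 were called higher and 11 of 24 measured members (45.8%) had all ratios above 1, with 0 all below. The list summed to 9733 and 9312 CPM in liver and oWAT, against 4376 and 6908 CPM in muscle and sWAT. A list of 26 sterol genes drawn up in the same way had 2 members called higher, DHCR7 among them, and 6 of 23 measured members (26.1%) above 1 in all pairings. DHCR7 had 52 and 25 counts, against 7 and 10, and lost its call with DESeq2 size factors or with unassigned counts kept in the totals. Over all measured genes 8.93% had all ratios above 1. The list shares describe lists chosen on these data and carry no independent support.

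Other called genes are listed here with the range of their bounds, which overlaps that of genes described above. Further symbols called higher included PLXNB1, PPM1K, FYB2, EPHX2, MAOB, GSTM5, NADK, AP1B1, SLC5A6, PCCA, KCNK5, CCNH, SNRNP70, SMPD3 and SKP2, with bounds nearest 1 between 1.002 for SKP2 and 1.29 for PLXNB1. GSTM5 belongs to a family of close copies, and how shared reads were assigned is not given. Those called lower were PRKCQ, BVES, GDF10, FHL5, OLFML2A, ARHGEF6, MAP1A, PARM1, SFRP4, CD276, DAG1 and FHL1, with bounds between 0.724 for PRKCQ and 0.998 for FHL1. Just outside lay CYP39A1 (0.997) and MOCOS (0.995) on the higher side, and PLEC (1.003) and TNS1 (1.005) on the lower side.

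Genes known by an identifier alone made up 11 of the 52 called higher (21.2%), beside 241 of the 4106 eligible genes (5.87%), and 1 of the 40 called lower. The identifier ENSMFAG00000003345 had 3154 counts in liver and 957 in oWAT, against 20 in muscle and 114 in sWAT. ENSMFAG00000043037, with 46 and 36 counts, was the only called gene at 0 in both muscle and sWAT. Both were chosen after their values were seen. Neither is paired with a symbol in the files or the RefSeq table, so no function is given.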

How the data were processed

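Per the labels' protocols, each library pooled the tissue's RNA from 5 monkeys and was read on a PacBio Sequel II instrument. Per the submitters' processing notes, minimap2 2.24 was used. The sources used here do not give build, annotation, filters, strand use or the treatment of shared reads. The authors deposited raw whole-number counts per gene. A gene not listed was taken as 0, and the entry without a gene name (14.3% to 19.5% of a file) was left out of totals. Symbols are those of the files, and 12266 of 13982 matched the RefSeq table of assembly T2T-MFA8v1.1. No sequence or coordinate is given, as no sequence of the files' build was used here.

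From these counts, ratios were computed with library totals and with edgeR 4.0.16 TMM factors (0.671 for liver, 1.35 for oWAT, 0.911 for muscle, 1.21 for sWAT), with exact 95% Clopper-Pearson intervals from the binomial share of 2 counts. Against 0 counts a floor of 3 counts (6.82 to 7.81 CPM) was used. Reads carry no molecular identifiers here, so intervals and floors cover counting error only. TMM moved the median log2 difference of all measured genes from -0.15 to -0.0019, which shifts every list median alike. List medians are over the mean log2 CPM (0.5 counts added) of the visceral minus the body-wall pair. DESeq2 1.42.0 (R 4.3.3) gave size factors for an alternative; edgeR and DESeq2 made no test, since 1 library per tissue leaves no spread to estimate. The code of the call was run on simulated Poisson counts with a single scaling at a time. That run did not cover the call under both scalings or spread beyond counting error. Python 3.11.15, NumPy 2.4.6, pandas 2.3.3, SciPy 1.17.1 and matplotlib 3.10.9 were used.

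The members and the 27 gene lists were chosen with earlier results of these data known, and 3 more lists were added after the calls were seen. The naming rule took, per direction, the 12 called genes with a symbol and the largest bound and 8 more even within a site, called list members, and the best-counted members not called (8 per positional list, 2 per matrix or immune list). Other genes were named after their values were seen: those with 4 agreeing ratios, the single-tissue contrasts GATA4, GATA6, CD163, CDH1 and KRT19, BANK1, single cell type markers, and the remaining calls. Some genes that the rule selected are not reported here.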

Additional observations from a re-analysis of the deposited data

Results flagged for a closer look

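For 7 named genes the fat contrast and the organ contrast were opposed, with each interval excluding 1 under both scalings. There is 1 library per tissue, so the difference between contrasts was not tested. The values below are the log2 ratio of oWAT over sWAT minus the log2 ratio of liver over muscle, with a floor of 3 counts where a library had 0.

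The difference was 5.06 for OSR1 and 3.44 for BNC2, both at 0 counts in liver and above sWAT in oWAT (ratios 6.29 and 2.33). It was 4.27 for SERPINH1 and 2.39 for GPNMB, which were 1.27-fold higher in oWAT than in sWAT and stood at 0.0661 and 0.241 of muscle in liver. It was -3.42 for FN1, -2.49 for IL6ST (358 counts in liver and 212 in oWAT, against 102 in muscle and 326 in sWAT) and -0.743 for B2M. These 3 were higher in liver than in muscle and lower in oWAT than in sWAT.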

How the results depend on the processing

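With the library total or TMM alone, 85 and 81 genes were called higher in the visceral libraries in place of 52. The genes called lower, 40 with both scalings, were 80 with TMM, 85 with DESeq2 factors and 70 when the 29 genes among the top 10 of a library were left out of the totals. All 4 pairings agreed for 2796 genes with TMM and 2795 with DESeq2 factors, in place of 1718. A bound past 1.5 left 18 higher and 10 lower, a bound past 2 left 10 and 3, and a 99% interval left 34 and 24, as stricter limits must. DESeq2 factors kept 47 of the 52 higher calls, without CCNH, CD14, DHCR7, SKP2 and SNRNP70, and all 40 lower calls. With unassigned counts in the totals DHCR7, SKP2 and SMPD3 lost the call.

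Leaving out liver, oWAT, muscle or sWAT leaves 2 pairings, and the counts grew to between 104 (without muscle) and 951 (without oWAT) higher, between 69 (without liver) and 864 (without oWAT) lower, and between 4210 and 5847 agreeing in direction. Without liver 347 were higher and without sWAT 371. Without muscle 349 were lower and without sWAT 847. The minimum count and thinning to the smallest library moved neither count of calls past 1.5 times. Of 196 recomputed differences of named genes none of a called gene changed sign, and 1 call (CD14, with DESeq2 factors) was lost. Those of genes not called moved by less than 1 on the log2 scale. Of 216 recomputed list counts 28 moved by more than 1.5 times.

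No paired analysis was possible because each tissue has 1 library. Depth limits calls of sparse genes: a gene needed 10 counts in both libraries of a side, which 0 of 8 measured HOX genes reached.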
